A study of Arabidopsis thaliana with 6 samples.

Results

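The scattered *ONSEN*-paired loci are the isolated positions in the *Arabidopsis thaliana* genome that carried only 1 or 2 lines in a browser track of read pairs. Lines of a track that lay within 500 bp of each other on a chromosome were merged into a locus, and loci of 1 or 2 lines were kept. Of 92 loci in library 1, 86 were of this kind, as were 152 of 163 in library 2, which gives 238 of 255 in all. Library 1 had 91 of its 896 lines there (10.2%), and library 2 had 160 of 1544 (10.4%). A single line made up 81 of these loci in library 1 and 144 in library 2, and a pair of lines made up 5 and 8 loci, respectively. The loci were selected on a measured value, the number of lines, which is therefore given only as a description. Loci of 1 line had a score of 0.287 and loci of 2 lines a score of 0.325. Just outside the limit, a place at chr4:9320355-9320441 had 3 lines in library 2 (score 0.362), and the same place had 6 lines in library 1 (score 0.475).

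The series lists 6 genomic DNA samples, of which 2 were analysed here. Both came from *nrpd1-3* plants in the Col-0 background, grown at 21 °C on MS agar in constant light, and no library without this mutation was analysed here. The labels disagree on the parent, which is described both as non-stressed and as kept at 37 °C for 24 h, and they also disagree on the age of the plants. Both are labelled ABA tolerant, for tolerance of the stress hormone abscisic acid, and carry the term line2, which the labels do not explain. No condition other than the genotype was therefore assigned, and the libraries are given separately. Fragments were read for 50 bp from one end and 35 bp from the other on a SOLiD 4 sequencer. For every line the track lists a position of 50 bp with its strand, which of the 8 original *ONSEN* copies it was paired with, and a score. Read depth is unknown, so absence of a locus from a library may mean only that no fragment of it was read.

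*ONSEN* is a Ty1/copia-like retrotransposon of *Arabidopsis* whose long terminal repeats (LTRs) respond to heat stress. It moves through an RNA intermediate that is copied into DNA and inserted at a new place, so that a new copy joins host sequence to the end of an LTR. NRPD1 is the largest subunit of RNA polymerase IV, which makes the precursors of small RNAs that guide DNA methylation and restrict transposons such as *ONSEN*. In a fragment that spans an insertion, one end is read from the element and the other from the flanking gene or intergenic sequence. A line at a single place is the least that such a pair can leave in a track.

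The reference sequence under the lines of 2-line loci is shown because these loci have the most lines of any scattered locus. The first 8 in chromosome order were taken, with those in UTRs not shown. Sequences are from the RefSeq TAIR10.1 assembly, read 5′ to 3′ on the plus strand, and capitals mark a run of at least 6 dinucleotide units.
*AT1G44120*, chr1:16782065-16782114: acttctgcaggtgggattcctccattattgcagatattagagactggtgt
intergenic, chr1:18399185-18399234: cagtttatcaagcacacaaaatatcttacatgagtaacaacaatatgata
*MES15*, chr1:26029422-26029471: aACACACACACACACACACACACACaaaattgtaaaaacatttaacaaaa
18S ribosomal RNA, chr2:3742-3791: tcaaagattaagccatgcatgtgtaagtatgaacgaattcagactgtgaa
*AT2G07280*, chr2:3027021-3027070: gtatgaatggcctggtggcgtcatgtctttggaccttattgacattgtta
*BGLU17*, chr2:18359693-18359742: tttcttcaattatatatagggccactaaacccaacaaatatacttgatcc

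Loci beside the original copies are shown for another reason, since there the line lies next to a known *ONSEN* end. All 8 elements end in the same 20 bases of the LTR. At *AT1G58140* these are printed in capitals and are followed by the flanking sequence up to the far end of the line, on the strand of the element. For *AT1G11265* and *AT5G13205* only the 50 bases of the line are printed, on the strand of the element, because the stretch between element and line is annotated partly as UTR.
*AT1G58140*, chr1:21524925-21525014, minus strand: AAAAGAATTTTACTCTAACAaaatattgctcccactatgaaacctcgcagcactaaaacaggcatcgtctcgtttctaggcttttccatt
*AT1G11265*, chr1:3785754-3785803, plus strand: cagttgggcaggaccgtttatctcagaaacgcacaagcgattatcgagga
*AT5G13205*, chr5:4207998-4208047, minus strand: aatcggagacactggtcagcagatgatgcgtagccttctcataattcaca

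In library 2, 4 of the 8 original copies had a single-line locus within 52 bp of the 3′ end of the element, and all 4 lines named the copy *AT1G21945* alone. The gap between the element and the line was 20 bp at *AT1G58140*, 33 bp at *AT1G11265*, 35 bp at *AT5G13205* and 52 bp at *AT3G61330*. Each line was listed on the strand of the element beside it, so that it pointed away from the element. None of these lines named the copy next to which it lay. One more locus, 663 bp beyond the end of *AT1G11265*, named all 8 copies and pointed the same way. These 5 loci made up 3.29% of the 152 loci (exact 95% interval 1.08 to 7.51%), whereas only 0.0147% of the bases of the same chromosomes lie within 1000 bp of an original copy. In library 1 none of 86 loci lay there, with an upper exact 95% limit of 4.2%, and the difference between the libraries was not tested. No locus lay within 1000 bp of the 5′ end of any element. Which end of a pair the strand of a line refers to is not given in the sources used here.

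**Figure D1:**
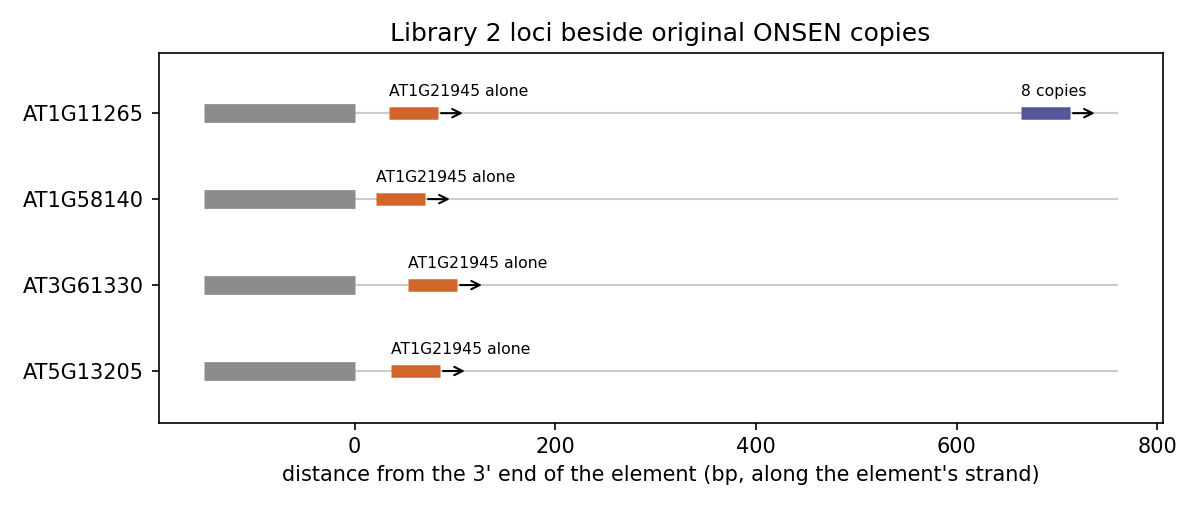
Scattered loci of library 2 within 1000 bp of an original *ONSEN* copy, drawn as 50-bp bars by their distance in bp from the 3′ end of the element (grey, not drawn to full length), with an arrow for the strand of the line. At *AT1G58140*, *AT1G11265*, *AT5G13205* and *AT3G61330* a line that named *AT1G21945* alone starts within 52 bp of the element, and a locus naming 8 copies lies 663 bp from *AT1G11265*.

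The 4 nearest lines fell in annotated genes whose models overlap the copy beside them. At *AT1G11265* the gene is *AT1G11270*, which encodes an F-box protein and spans chr1:3780386-3787099 on the minus strand, with the whole element inside it. Both of its loci lay in coding sequence, and it was the only gene with 2 scattered loci in a library. At *AT5G13205* the line fell in the coding sequence of *AT5G13200*, a GRAM domain gene at chr5:4206738-4208289 on the plus strand. The line beside *AT3G61330* fell in the 3′ UTR of *AT3G61320*, which encodes a bestrophin-like protein. The one beside *AT1G58140* fell in an intron of the transcribed pseudogene *AT1G58130*. Farther out, 2 more loci of library 2 lay 2772 and 5759 bp from the 5′ end of the copy *AT1G21945*. The nearer one named *AT1G21945* and the farther one *AT3G59720*, each alone.

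Across the genome, the loci were spread over all 5 chromosomes, and for every chromosome the exact interval of its share included its share of the total length. Chromosome 1 held 17 of 86 loci in library 1 (19.8%, exact 95% interval 12.0 to 29.8%) and 46 of 152 in library 2 (30.3%, 23.1 to 38.2%), against 25.5% of the chromosome length. Chromosome 3 held 20 and 31 loci, and chromosome 5 held 22 and 30. The density ran from 0.559 loci per Mb on chromosome 1 to 0.853 on chromosome 3 in library 1, and from 1.11 on chromosome 5 to 1.51 on chromosome 1 in library 2. Neighbouring loci of a library lay a median of 888 kb apart in library 1 and 583 kb in library 2.

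Pericentromeres flank the centromeres and are rich in transposons and silent chromatin, whereas the arms hold most genes. They were set here from the annotation, as the contiguous 100-kb windows around the point of lowest protein-coding gene coverage (mean of 11 windows) in which coverage stayed below 50% of the chromosome median. They spanned from 3.1 Mb on chromosome 4 to 5.0 Mb on chromosome 3, and protein-coding genes covered 11.3 to 16.5% of their bases against 60.5 to 65.1% in the arms. Of the scattered loci, 13 of 86 lay in a pericentromere in library 1 (15.1%, exact 95% interval 8.30 to 24.5%) and 26 of 152 in library 2 (17.1%, 11.5 to 24.0%). Even placement along the same chromosomes would give 17.9% and 17.4%, and both values lie within the intervals. These values count all known bases, also those under the loci of more lines that the selection left out. Where reads can be placed was not examined, so a lack of preference is not shown. Merging within 100 bp raised the share in library 2 to 47.1% (40.6 to 53.6%), above the 17.3% of even placement. With each arm cut into 3 equal parts, the outermost held 27 loci in library 1 and 52 in library 2 (34.2%, 26.7 to 42.3%), against 27.5% of the length in library 2. The innermost held 24 and 31 loci. In library 2, 10 of the 26 pericentromeric loci were on chromosome 2, and 7 of them lay between 3186720 and 3565533, a stretch of 0.379 Mb with the sequence of the mitochondrial genome. In each of these 7 loci the 50 bases have at least 1 exact match in an organelle genome. Only 1 locus of library 1 lay in this stretch.

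**Figure D2:**
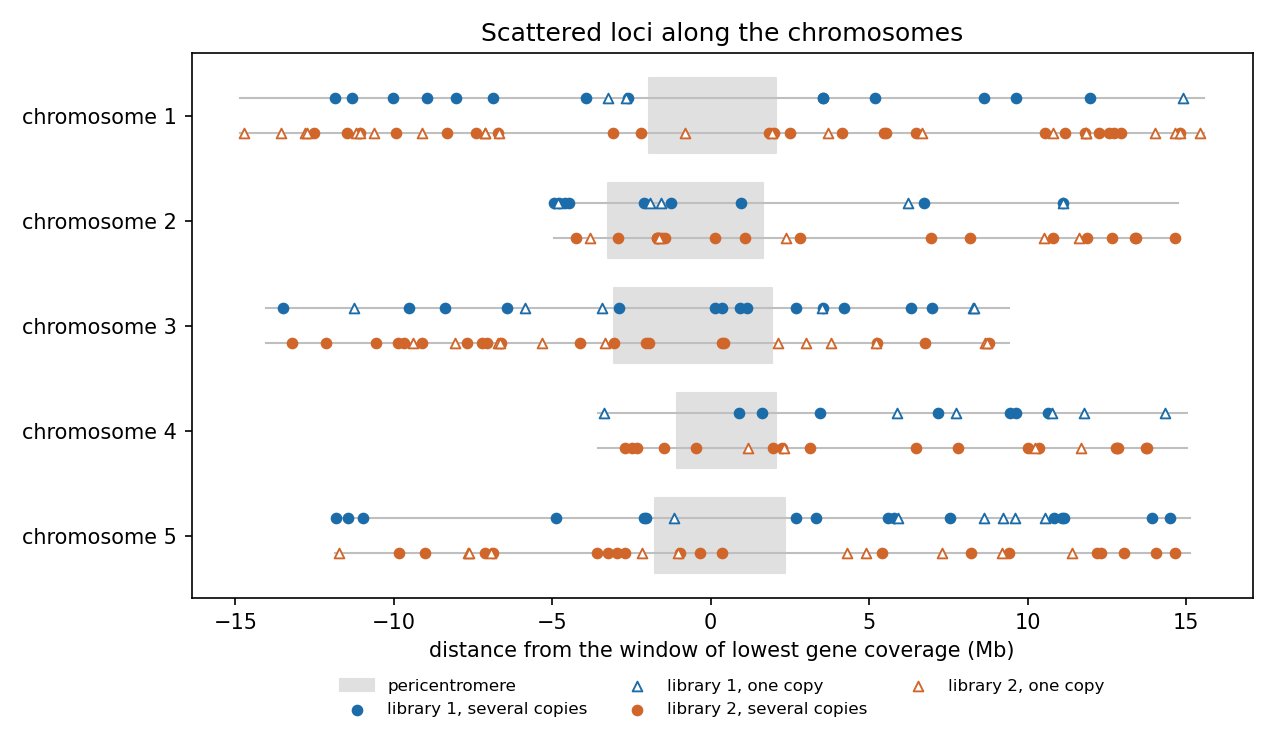
Every scattered locus by its distance in Mb from the 100-kb window of lowest gene coverage on its chromosome, with library 1 above and library 2 below on each chromosome. Filled circles name several *ONSEN* copies, open triangles name one, and grey marks the pericentromere, which held 13 of 86 loci in library 1 and 26 of 152 in library 2.

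The loci of 3 or more lines were more often pericentromeric. In library 1, 4 of 6 such loci (66.7%) were pericentromeric against 15.1% of the scattered loci (two-sided Fisher's exact test, adjusted p = 0.0376 over 8 tests), and in library 2, 9 of 11 (81.8%) against 17.1% (adjusted p = 0.000125). Genes held 112 of 152 scattered loci in library 2 (73.7%) but 4 of 11 loci with more lines (36.4%, Fisher's exact test, adjusted p = 0.0376). This last call was lost with merging within 2000 bp (adjusted p = 0.208) and with loci of exactly 1 line (adjusted p = 0.0505). In library 1 the shares within genes were 64% and 66.7% (Fisher's exact test, adjusted p = 1). Strand and the share naming several copies did not pass the test in either library, with adjusted p from 0.75 to 0.856 by Fisher's exact test. Merging within 100 bp took the several-copies difference in library 2 past the threshold (-22.3 points, Fisher's exact test, adjusted p = 0.00202). These tests compare places within one track, not conditions, and the split by line number was made with earlier results of these data known. Closely spaced lines were merged into loci of many lines, so the contrast in place depends on the merging that made the groups. In library 2, merging within 100 bp gave 48 loci of 3 or more lines instead of 11. Its scattered loci were then 47.1% pericentromeric, -48.8 points from the loci of more lines. The p-values therefore only describe this split and are no separate support for a difference in place. Some places with 3 or more lines were the same in both libraries, such as chr4:9320355, so the libraries are not independent here.

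Most of the scattered loci lay in genes. In library 1 the midpoint of 55 of 86 loci fell within a gene (64%, exact 95% interval 52.9 to 74.0%), and in library 2 that of 112 of 152 loci (73.7%, 65.9 to 80.5%). Genes cover 64.2% of the bases of the same chromosomes in each case, which lies inside the first interval and below the second. The libraries differed by 9.73 percentage points, which did not pass the test (two-sided Fisher's exact test, adjusted p = 0.234 over 5 tests). With loci of exactly 1 line the share in library 2 was 72.2%, and the lower limit of its interval, 64.2%, equalled the base share. The order also depended on the merging distance. Merging within 100 bp split the line clusters over repeats into pieces, which raised the number of loci from 152 to 238 and lowered the share within genes to 52.5%.

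By gene part, coding sequence held 18 loci in library 1 (20.9%, exact 95% interval 12.9 to 31.0%) and 49 in library 2 (32.2%, 24.9 to 40.3%), against 28.3% and 28.4% of the bases. Introns held 18 (20.9%) and 31 (20.4%), against 15.6% and 15.7%. The 5′ UTR was hit by 7 and 8 loci and the 3′ UTR by 3 and 10. Exons of pseudogenes held 6 and 10 loci, and exons of non-coding RNAs 3 and 4, which in library 2 include a place within the protein-coding gene *AT1G76880*. For each of these parts the base share lay within the interval of both libraries. Intergenic sequence held 31 loci in library 1 (36.0%) but 40 in library 2 (26.3%, 19.5 to 34.1%), and the base share of 35.8% lay above the second interval. Of these intergenic loci, 14 in library 1 and 18 in library 2 lay within 1000 bp upstream of a protein-coding gene (16.3% and 11.8%), and the 13.3% of bases lay within both intervals. Another 12 and 14 lay farther than 1000 bp from any protein-coding gene. Their base share of 16.7% lay within the interval of library 1 (14%, 7.42 to 23.1%) and above that of library 2 (9.21%, 5.13 to 15%).

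**Figure D3:**
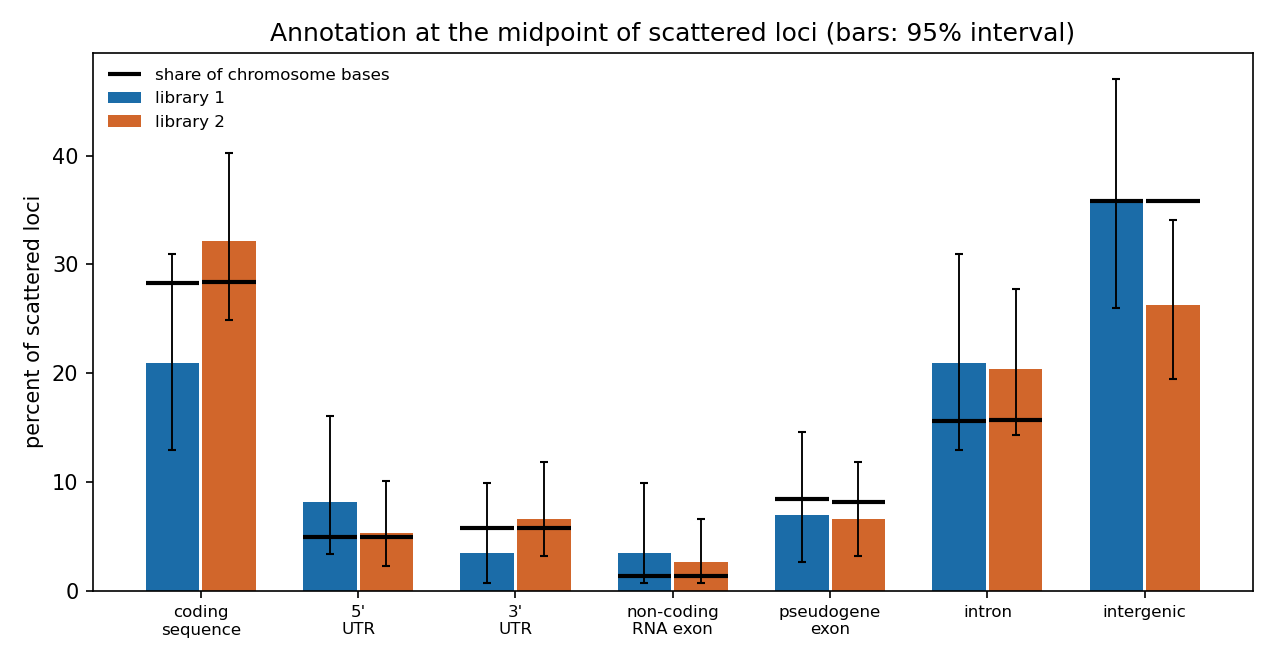
Percent of scattered loci whose midpoint fell in each annotated gene part, with exact 95% binomial intervals, for library 1 (86 loci) and library 2 (152 loci). Black bars give the share of the bases of the same chromosomes, which lies inside the interval for every part except intergenic sequence in library 2, where 26.3% of loci stood against 35.8% of bases.

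The genes with a locus were of ordinary size. Scattered loci fell in 45 protein-coding genes in library 1 (0.164% of all) and 96 in library 2 (0.35%). None was hit in both, from which nothing can be read at such small shares. The median length of these genes was 2956 bp in library 1 and 2902 bp in library 2. Longer genes offer more bases, and the length above and below which protein-coding sequence is equally divided is 2912 bp over all 27444 genes, whose plain median is 2078 bp. With each gene cut into 3 equal parts, the first, middle and last held 15, 17 and 13 loci in library 1 and 32, 24 and 41 in library 2. Lines ran on the same strand as the gene at 24 of 45 loci in library 1 (53.3%, exact 95% interval 37.9 to 68.3%) and 45 of 95 in library 2 (47.4%, 37.0 to 57.9%). Neither interval excludes an even split.

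Relative to the reference sequence, the plus strand held 36 of 86 loci in library 1 (41.9%, exact 95% interval 31.3 to 53.0%) and 90 of the 150 loci of one strand in library 2 (60.0%, 51.7 to 67.9%). This difference of 18.1 percentage points was the only one of 5 between the libraries to pass the test (two-sided Fisher's exact test, adjusted p = 0.0491). The test is over loci of 1 library against 1, so it compares these tracks and has no replicate check. It was lost with loci of exactly 1 line (adjusted p = 0.0604) and with merging within 100 bp (adjusted p = 0.163). The direction was the same among loci naming one copy, with 9 of 26 on the plus strand in library 1 and 32 of 54 in library 2. Among loci naming several copies the plus strand held 27 of 60 and 58 of 96. The share of library 2 on the plus strand fell to 53.2% (46.4 to 60.0%) with merging within 100 bp, an interval that includes 50%.

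Most scattered loci named either one copy or nearly all of them. In library 1, 26 of 86 loci named one copy (30.2%), 28 named 7 (32.6%) and 17 named all 8 (19.8%). In library 2, 54 of 152 named one copy (35.5%), 26 named 7 (17.1%) and 50 named all 8 (32.9%). Only 1 locus in library 1 and 4 in library 2 named from 2 to 4 copies. Loci naming 2 or more copies made up 69.8% of library 1 (exact 95% interval 58.9 to 79.2%) and 64.5% of library 2 (56.3 to 72.1%), and library 2 minus library 1, -5.29 points, did not pass the test (Fisher's exact test, adjusted p = 0.594). When only loci naming all 8 copies were counted, library 2 was higher by 13.1 points (Fisher's exact test, adjusted p = 0.0894).

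**Figure D4:**
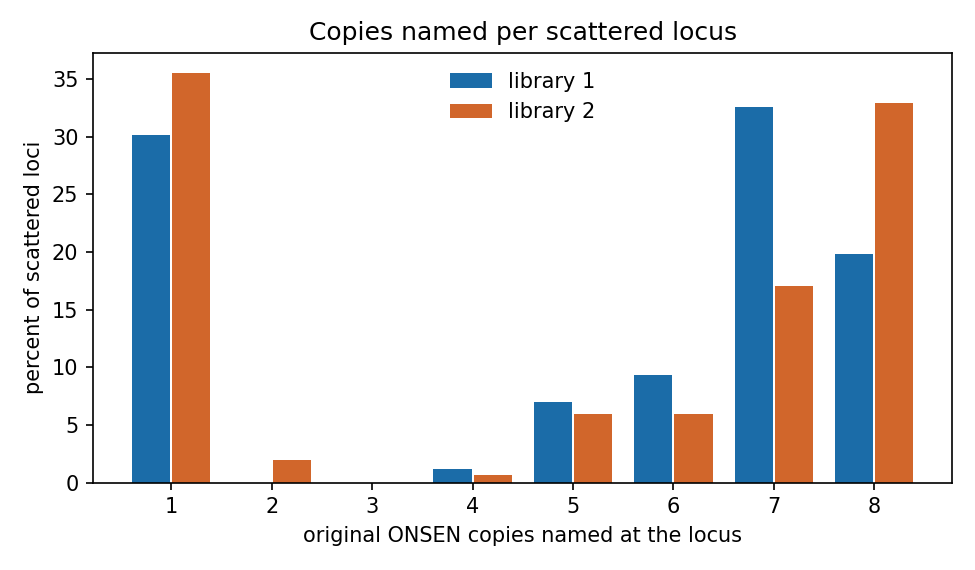
Percent of scattered loci by the number of original *ONSEN* copies named at the locus, for library 1 (86 loci) and library 2 (152 loci). Loci naming one copy made up 30.2% and 35.5%, and loci naming 7 or 8 copies most of the rest, with 7 the more frequent in library 1 (32.6%) and 8 in library 2 (32.9%).

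Among loci naming one copy, *AT1G21945* was named at 18 of 26 in library 1 and 46 of 54 in library 2. *AT3G32415* was named alone at 4 loci in each library and *AT3G59720* at 2 and 4. *AT1G48710* and *AT5G13205* were each named alone once, in library 1. *AT1G11265*, *AT1G58140* and *AT3G61330* were never named alone. The copy left out at loci of 7 copies was most often *AT3G32415*, at 15 of 28 in library 1 and 12 of 26 in library 2, followed by *AT1G21945* at 6 and 8. A stretch of 235 bp within *AT1G21945* is identical to the chloroplast genome, and none of the other 7 copies aligned to that genome. The part of this stretch in the loci that name *AT1G21945* alone was not tested.

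Loci naming several copies and loci naming one did not pass a test of difference in place. Genes held 40 of 60 and 15 of 26 in library 1 (Fisher's exact test, adjusted p = 0.953) and 73 of 98 and 39 of 54 in library 2 (adjusted p = 1). Pericentromeres held 10 of 60 and 3 of 26 in library 1 (Fisher's exact test, adjusted p = 1), and 21 of 98 (21.4%) and 5 of 54 (9.26%) in library 2. That last pair differed by 12.2 points (Fisher's exact test, adjusted p = 0.431), which merging within 100 bp raised to 26.8 points and past the threshold (Fisher's exact test, adjusted p = 0.00111). The 50 bases under the lines had a mean GC content of 33.4% ± 9.40 (SD) at loci naming several copies and 34.1% ± 8.19 at loci naming one in library 1. In library 2 the values were 37.9% ± 8.29 and 35.1% ± 9.51. The chromosomes as a whole have 36.0%.

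The 13 loci of 2 lines were of 3 kinds. At 8 of them, 2 in library 1 and 6 in library 2, the lines had the same start, strand and copy names, so that separate molecules and repeats of one molecule cannot be told apart. These were the intergenic place at chr1:18399185-18399234, *AT2G07280* (*AT3G32415* alone), *AT1G44120* and *AT1G70790* (*AT1G21945* alone), *BGLU17* (7 copies), and *AT3G04065*, *AT4G09040* and *AT4G34280* (8 copies). *AT1G44120* encodes CELLULOSE SYNTHASE INTERACTIVE 2, *BGLU17* a beta-glucosidase, *AT4G09040* an RNA-binding protein, *AT4G34280* a WD-40 repeat protein and *AT1G70790* a calcium-dependent lipid-binding protein. *AT3G04065* is a non-coding RNA, and *AT2G07280* encodes an uncharacterized protein.

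At another 2 loci, both in library 2, the lines had the same start but opposite strands. They lay in the 5′ UTR of *LPR1* at chr1:8147295-8147344, which encodes a multicopper oxidase of the root response to low phosphate, and in an intron of *MES15*, a methyl esterase gene. Both positions contain an AC dinucleotide repeat, as the *MES15* sequence above shows. At *LPR1* the lines named 7 and 8 copies and at *MES15* 5 and 2.

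At the other 3 loci, all in library 1, the lines lay 328 to 330 bp apart on one strand. Of these, one pair was the 18S ribosomal RNA genes at chr2:3742-4121 and chr3:14197713-14198092, where the 50 bases of the first line have 2 exact matches in the chromosomes. The same read pairs listed at both places cannot be told apart from separate ones. The other was *AT3G42245*, a pseudogene at chr3:14401324-14403205, where the lines named 7 and 3 copies at chr3:14401716-14402093. It was the only gene with a scattered locus in both libraries. In library 2 a single line lay at chr3:14401447-14401496, 219 bp away, on the same strand, and named 6 copies. A sequence similar to *ONSEN* lies within 500 bp of both. No other scattered locus lay within 10 kb of one in the other library. Within 2000 bp of the *AT3G42245* loci, each library also had a locus of more lines. It had 7 lines at chr3:14403850-14403942 in library 1 and 11 at chr3:14403188-14403955 in library 2, naming 8 copies in each.

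Sequence similar to *ONSEN*, aligned over at least 50 bp outside the original copies, lay within 500 bp of 1 of 86 loci in library 1 (1.16%, exact 95% interval 0.0294 to 6.31%) and 3 of 152 in library 2 (1.97%, 0.409 to 5.66%). Such places make up 0.0929% and 0.0946% of positions. Besides *AT3G42245*, they were the pseudogene *AT1G10260*, whose line named 2 copies, and the intergenic place 2772 bp from *AT1G21945*. Homopolymers of at least 9 bases or dinucleotide repeats of at least 6 units were found at 4 loci in library 1 (4.65%, 1.28 to 11.5%) and 7 in library 2 (4.61%, 1.87 to 9.26%), against 2.39% of all 50-bp windows. They included the 5′ UTR of *YUC5*, a gene of auxin synthesis, in library 1 and the 3′ UTR of *NF-YA9* in library 2. Another exact match of the 50 bases existed for 3 loci in library 1 and 7 in library 2. The other loci had no further exact match at this length, and near matches were searched for only with *ONSEN* and the organelle genomes.

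The genes hit were of mixed function. Of the 167 loci in genes over both libraries, 46 (27.5%, exact 95% interval 20.9 to 35%) lay in genes of 11 function groups matched by words in the RefSeq product names, which hold 20.7% of all gene bases. The share was 11 of 55 (20%) in library 1 and 35 of 112 (31.2%) in library 2. Genes whose product names match transcription factors had the most, 11 loci (6.59%, 3.33 to 11.5%) against 4.48% of gene bases. They included *NF-YA3* (5′ UTR) and *NF-YA9* (3′ UTR), which encode subunits of the CCAAT-binding factor NF-Y, *FBH2* (3′ UTR), a bHLH gene of flowering control, and *LBD41* (intron), a LOB-domain gene. *LBD41* was from library 1 and the other named ones from library 2. The words did not match *REM1*, a B3 family transcription factor gene by product name, hit in an intron in library 1.

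Genes whose product names match protein kinases had 8 loci (4.79% against 4% of gene bases), of which *AT4G08170* encodes an inositol phosphate kinase and not a protein kinase. Among them were *CERK1*, the chitin receptor kinase, hit in coding sequence at chr3:7615660-7615709 in library 1, and *WAK3*, a wall-associated kinase, hit in coding sequence in library 2. The words for transporters and channels also matched 8 (4.79% against 2.57%), of which *AT1G33780* is a putative electron transporter and *AT4G27610* an intracellular protein transporter by product name. The line at *AT1G33780* lay in a 5′ UTR. Genes with a symbol were picked with coding sequence first, so the place of those named next is a matter of choice. They were the proton pump *AHA10* and the ABC transporter *ABCG7* in library 1, and the ABC transporter *ABCG15* and the anion channel *SLAH2* in library 2. Ubiquitin-related genes had 7, all in library 2 (4.19% against 3.78%), such as the conjugating enzymes *UBC23* (coding sequence) and *UBC35* (3′ UTR) and the ubiquitin protease *UBP12* (5′ UTR). This group takes in F-box genes, so *AT1G11270* counts with its 2 loci, both beside the original copy *AT1G11265*.

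Heat shock proteins and chaperones had 5 loci (2.99%, exact 95% interval 0.979 to 6.85%), and the 0.929% of gene bases they hold lay just below this interval, with no test made over the 11 groups. None of the 5 lay in coding sequence. *ATERDJ2B*, *AT1G67760*, *TCP-1* and *AT4G02450* were hit in an intron and *AT3G06340* in its 3′ UTR. They encode a J-domain protein, a TCP-1/cpn60 chaperonin, the alpha subunit of T-complex protein 1, an HSP20-like chaperone and another J-domain protein. The *ATERDJ2B* line was from library 1 and named a single copy, and the other 4 were from library 2 and named 7 or 8.

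The smaller groups had few loci. Genes of abscisic acid and water stress had 1 (0.599%, 0.0152 to 3.29%, against 0.356% of gene bases), the dehydrin gene *AT1G54410*, hit in its 3′ UTR in library 2. Genes of histones, chromatin and RNA silencing also had 1, *DRM1*, whose product belongs to the de novo DNA methyltransferases that act with small RNAs. Its line lay at chr5:4994349-4994398 in an intron and named all 8 copies. Pentatricopeptide and RNA-binding genes had 3, *AT4G38150* in library 1 and *AT4G09040* and the helicase gene *AT5G14610* in library 2. Words for cytochrome P450 and glycosyltransferases matched 3, *CYP72A11*, *UGT73B1* and *CYP715A1*, all in library 2. These words did not match *AT1G68390*, an N-acetylglucosaminyltransferase gene by product name, hit in an intron in library 2. Disease resistance genes and the 87 genes matched by words for retrotransposons and transposases had none of 167 loci (upper exact 95% limit 2.18%). These groups hold 0.926% and 0.145% of gene bases. Annotated pseudogenes of any name held 6 loci in library 1 and 11 in library 2, and whether these pseudogenes derive from transposons was not tested.

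**Figure D5:**
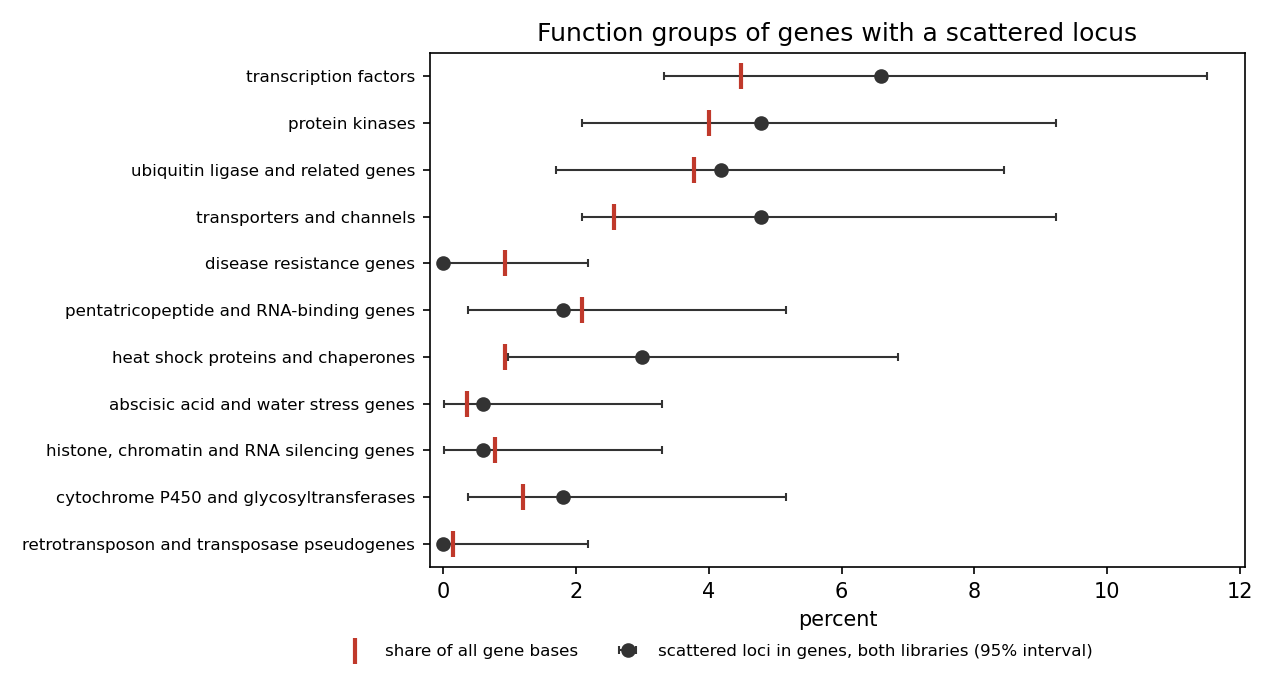
Percent of the 167 scattered loci in genes that fell in each of 11 function groups, over both libraries, with exact 95% binomial intervals (points and lines), beside the percent of all gene bases that the group holds (red marks). The red mark lies inside the interval for every group except heat shock proteins and chaperones, where 2.99% of loci stood against 0.929% of bases.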

How the data were processed

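The authors sequenced genomic DNA on a SOLiD 4 system and deposited 1 browser track per library, with a score for each line as its only value. The submitters' processing notes name Bowtie 0.12.8 and TAIR9. How pairs were filtered and read depth are not given in the sources used here. The score took the same value for loci with equal line numbers, so it was not used as a measurement. Positions, made 1-based, were placed on TAIR10.1 with its RefSeq annotation (37899 genes), into whose chromosomes all lines fit. Midpoints decided gene parts, with coding sequence first. Base shares counted all known bases, whether or not reads can be placed there, and were weighted by the loci on each chromosome. Shares carry exact Clopper-Pearson 95% intervals, which cover counting error only. Groups were compared by two-sided Fisher's exact tests with Benjamini-Hochberg adjustment (threshold 0.05). *ONSEN*-like and organelle-like sequence was found with BLAST+ 2.17.0 (E-value limit 1e-05, at least 50 bp, and 85% identity for organelles). Python 3.11.15 and scipy 1.17.1 were used, and the scripts were tested on simulated data. The members and lists were chosen with earlier results of these data known. Genes named were those at 2-line loci, those hit in both libraries or more than once, and, per function group, all genes where 5 or fewer and otherwise up to 4 with a symbol, coding sequence first. *YUC5*, *AT1G10260*, *AT4G08170*, *AT1G33780*, *AT4G27610*, *AT1G68390*, *AT1G76880*, *REM1* and the genes beside the original copies were added after their values were seen. The alternatives changed the merging distance, lines per locus, placement, annotation, pericentromere boundary, definition of several copies, *ONSEN*-like window and identity, or left out loci. Loci of the other 4 samples were not analysed here.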

Additional observations from a re-analysis of the deposited data

How the results depend on the processing

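Of 151 comparisons with alternatives over 33 results, 127 kept their direction and their side of the threshold, or stayed within the interval of the reported share. Merging within 100 bp gave most of the others, since it splits the line clusters over repeats of library 2 into pieces and raised its scattered loci from 152 to 238. With it, the shares of library 2 were 52.5% in genes, 34.9% in exons and 47.1% in the pericentromere. The differences of library 2 minus library 1 became -10.9 points in genes, -9.21 in exons, 26.6 in the pericentromere (adjusted p = 2.99e-05 by Fisher's exact test), 10.8 on the plus strand and 3.69 for several copies. Scattered loci minus loci of 3 or more lines became 30.1 points in genes and -7.26 for several copies in library 1, and -3.9 on the plus strand and -22.3 for several copies in library 2 (adjusted p = 0.00202 by Fisher's exact test). Several-copy minus one-copy loci in library 2 became -8.82 points in genes and 26.8 in the pericentromere (adjusted p = 0.00111 by Fisher's exact test). With loci of exactly 1 line, the strand difference between libraries was 18.3 points and the difference in genes from loci of 3 or more lines in library 2 was 35.9 points, which merging within 2000 bp made 27.9. Protein-coding genes only gave 52.3% in library 1 and 63.8% in library 2, against 54.1% and 54.3% of bases. Overlap by 1 bp gave 54.7% in exons in library 1, against 54.7% of such windows. All 8 copies were named by 19.8% and 32.9%, a difference of 13.1 points. For shares, the count of 127 did not look at the side of the base share or even split. That side changed for the plus strand in library 2 with merging within 100 bp (53.2%). It also changed for genes in library 2 with loci of exactly 1 line (72.2%). For *ONSEN*-like sequence in library 1 it changed at 80% identity or more (1.16% against 0.0178% of positions). The share in genes over both libraries, 70.2%, ran from 64 to 73.7% with one library left out, and the share in function groups, 27.5%, from 20 to 31.2%. The alternatives for the comparisons with loci of 3 or more lines and between several-copy and one-copy loci, for the function groups, and those that left out loci were chosen after seeing the data, except for the mitochondrion-like region. Leaving out loci beside original copies, run for genes and exons, or loci with simple repeats and repeated 50-mers together, changed no call. No paired analysis was possible because both libraries belong to one group. Depth is unknown, so a locus missing from a library may not have been sampled.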
